A study of Mus musculus with 16 samples.

Results

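Cdx1 and Cdx2 are the genes of a pair of caudal-type homeobox transcription factors of the intestinal epithelium, and their loci were followed in maps of H3K27ac, a histone H3 tail that carries an acetyl group on lysine 27. The loci were taken as fixed windows of the mouse build mm9: 45 kb around Cdx2 on chromosome 5, from 148095000 to 148140000, and 65 kb around Cdx1 on chromosome 18, from 61155000 to 61220000. Of the 369142 peaks in the 8 deposited lists, 102 overlapped these windows, 43 of them at Cdx2 and 59 at Cdx1, and none crossed a window's edge. The mark was mapped by ChIP-seq (sequencing of immunoprecipitated chromatin) in small intestinal epithelium of mice of mixed C57BL/6 CD1 strain, in 4 groups of 2 libraries that the series calls biological duplicates. Embryonic epithelium was collected at E12.5 and at E14.5 (E for embryonic day) and sorted for the epithelial surface protein EpCAM, without cells bearing the endothelial marker CD31 or the leukocyte marker CD45. The adult cells came from male Lgr5EGFP-Cre-ERT mice at postnatal day 60. Intestinal stem cells (ISC) were taken from crypts by the strong GFP signal of the Lgr5 allele, and enterocytes were sorted with the same surface markers as the embryonic cells. That gate holds no marker of enterocytes alone, so other epithelial cells of the preparation could pass it. The sources used here do not give the embryos' sex or say whether a library pooled animals. Genes were not placed on mm9 here, so the labelled cell types were not checked against markers.

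CDX2 sets and keeps the intestinal identity of the gut epithelium: without it, the embryonic epithelium takes on features of more anterior gut such as stomach or oesophagus. In the adult it is present along the crypt and villus, where it binds enhancers and promoters of enterocyte genes. CDX1 is a close relative that binds the same kind of AT-rich site, and it is known as a crypt-enriched factor and a target of Wnt signalling. H3K27ac marks active promoters and enhancers, and wide stretches of it are common at genes that are central to a cell's identity. The mark shows where chromatin is acetylated, not how much RNA the gene makes. In a sorted population, a mark in fewer cells and a weaker mark in each cell cannot be told apart.

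The 250 bases before the annotated start of Cdx2 are shown because this promoter is the one sequence that the RefSeq table held for the pair. The sequence is that of assembly GRCm38.p6, read 5′ to 3′ along the gene's own strand, which is the minus strand. It was not placed on mm9, so no peak is assigned to it. Capitals mark the one match to the CCAAT box.
Cdx2: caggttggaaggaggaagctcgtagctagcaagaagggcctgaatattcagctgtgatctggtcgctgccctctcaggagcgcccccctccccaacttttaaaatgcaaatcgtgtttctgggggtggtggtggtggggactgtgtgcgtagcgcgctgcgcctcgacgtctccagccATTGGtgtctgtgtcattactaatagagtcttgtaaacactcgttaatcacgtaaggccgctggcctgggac
The sequence holds 55.2% G and C. The CCAAT box (CCAAT) matched once, on the opposite strand and 72 bases before the start, and 33.8% of the 32851 sequences of this length in the table hold it. The CDX core TTTAT had 0 matches on either strand (37.3% of all sequences hold it). The TATA box TATAAA, which contains TTTAT on its other strand, had 0 (12.4%), as did the GATA motif GATAA (22.6%). These matches describe letters and not bound sites.

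The libraries differed in how much of the genome was called as peaks, and covered lengths are read with that in view. Depth was 34.6 to 54.6 M ChIP tags, and peaks covered 38.8 to 76.1 Mb, a span of 1.96-fold. ISC replicate 2 stood apart with 76.1 Mb, against 51.2 Mb in ISC replicate 1, and both enterocyte libraries had 38.8 Mb. Covered length in a window is therefore given first as deposited. For the tests it was then divided by the total of its library relative to the mean total, and limma was run on log2(covered bp + 500). The 4 groups were fitted together with 4 residual degrees of freedom. Adjusted p-values are Benjamini-Hochberg values over all tiles of the same width across the genome, 20478 of 45 kb or 16704 of 65 kb. A tile was called when this value was under 0.05. Log2 differences on that scale are later minus earlier group in the order E12.5, E14.5, ISC and enterocytes, or adult minus embryo. They understate the change where little is covered. ISC and enterocytes are both of postnatal day 60, so their contrast is not one of age. Adult and embryonic groups differ in age, and ISC also in cell type and sort, which these contrasts cannot tell apart.

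Cdx2 carried long acetylated blocks in every group. As deposited, peaks covered 22.4 and 25.3 kb of the window in the E12.5 libraries and 24.3 and 24.8 kb at E14.5. They covered 23.3 and 26.2 kb in ISC and 21.2 and 22.3 kb in enterocytes. This is 47.1 to 58.3% of the window, and the 8 libraries span 1.24-fold while their totals span 1.96-fold. The embryonic and adult ranges overlap, and the 2 enterocyte values are the lowest of the 8. Group means were 23.8 ± 2.00 kb at E12.5, 24.6 ± 0.359 kb at E14.5, 24.8 ± 2.12 kb for ISC and 21.7 ± 0.774 kb for enterocytes (SD, n = 2).

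**Figure D1:**
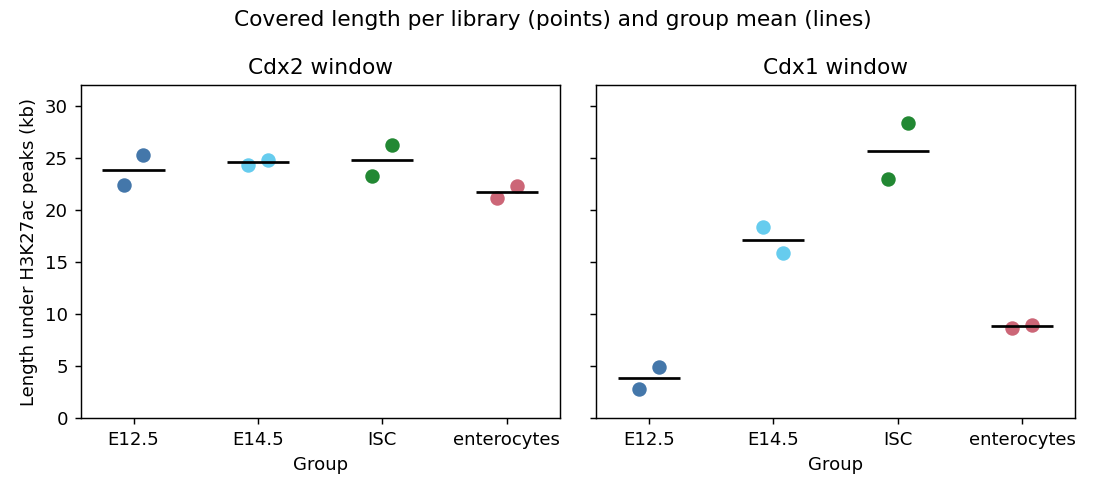
Length covered by H3K27ac peaks, in kb as deposited, in the Cdx2 window of 45 kb and the Cdx1 window of 65 kb; points are single libraries and lines are means of 2 libraries. Cdx2 stays between 21.2 and 26.2 kb in all 8 libraries, while Cdx1 spans 2.76 to 28.4 kb with its lowest values at E12.5 and its highest in ISC.

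Cdx2 also ranked near the top of the genome in every library. Only 18 to 99 of the 20478 tiles of 45 kb had more covered length in the same library, which puts the locus at the 99.5th to 99.9th percentile. The tiles were laid to hold the Cdx2 window whole, while their edges can cut other loci, which can favour Cdx2 in this ranking. The same holds for Cdx1 among the tiles of 65 kb. The most significant Cdx2 peak ranked 7 and 11 by −log10 q in the E12.5 lists, 3 and 206 at E14.5, 61 and 1528 in ISC and 21 and 316 in enterocytes. Ranks belong to their own list, and replicates of one group differed widely in them. The summit of that peak lay within 241 bp in all 8 libraries, from 148118015 to 148118256.

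The limma test called no difference in the length of the Cdx2 locus between the groups compared. From E12.5 to E14.5 the scaled length differed by −0.20 on the log2 scale (SE 0.16, adjusted p = 0.441, limma), where 13.0% of the tiles of 45 kb were called lower. From E14.5 to ISC the difference was −0.03 (SE 0.16, adjusted p = 0.962), with 23.7% of tiles called lower. From ISC to enterocytes it was 0.49 (SE 0.16, adjusted p = 0.0590), and 13.9% of tiles were called higher. The scaled means were 21.5 ± 4.15 kb for ISC and 30.1 ± 1.06 kb for enterocytes, and these libraries did not overlap. The direction rests on the scaling: as deposited, enterocytes had the shorter cover, and without scaling the difference was −0.18 (adjusted p = 0.350). Without ISC replicate 1 it was 0.68 and became a call (adjusted p = 0.0358, limma). Between the 4 adult and the 4 embryonic libraries the scaled difference was 0.12 (SE 0.12, adjusted p = 0.402), with 25.8% of tiles called higher. The median tile of 45 kb differed by −0.02, −0.07, −0.03 and −0.26 in these 4 comparisons. As deposited, the adult mean of 23.2 ± 2.18 kb was 0.968 kb below the embryonic mean of 24.2 ± 1.25 kb (SD, n = 4; exact permutation p = 0.457, two-sided).

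The blocks at Cdx2 were shared by the libraries. Merged over the 8 libraries, the peaks formed 4 regions, and the main one ran from 148108525 to 148131307. It was covered over 20.0 and 21.6 kb at E12.5 and over 21.0 and 21.5 kb at E14.5. The adult values were 20.1 and 22.3 kb for ISC and 18.5 and 19.3 kb for enterocytes. A second region present in all 8 libraries, from 148103333 to 148107344, had 1.51 and 2.36 kb at E12.5 and 2.65 to 4.00 kb in the other 6 libraries. How the main block was divided differed by library. The longest single peak measured 8.85 and 12.0 kb in the E12.5 lists, 21.0 and 11.2 kb in those of E14.5, 19.6 and 22.3 kb in those of ISC, and 11.1 kb in both enterocyte lists. The number of peaks ran from 2 in E14.5 replicate 1 and ISC replicate 2 to 10 in E12.5 replicate 1, so the count of peaks here says little about the acetylated length.

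**Figure D2:**
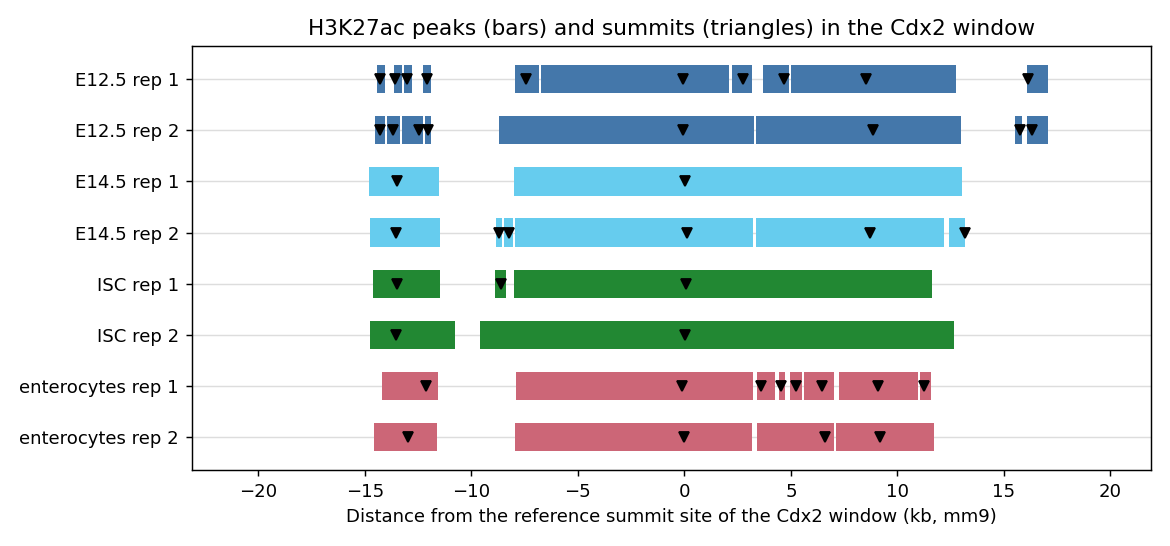
H3K27ac peaks in the Cdx2 window for each of the 8 libraries (rows), with the distance in kb from the median position of the strongest summit on the horizontal axis; bars are called peaks and triangles their summits. The main block and the strongest summit recur in every library, and the outermost cover on the right is seen in the E12.5 libraries.

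At the high-coordinate end of the Cdx2 window, cover was longer in the embryo than in the adult. The 5 kb window from 148130001 to 148135000 had 1.68 and 2.21 kb of cover at E12.5 and 1.14 and 1.07 kb at E14.5. It had 0 and 0.777 kb in ISC and 0 kb in both enterocyte libraries. All 4 embryonic values exceed the 4 adult ones, and limma called the window lower in the adult (log2 difference −1.68, adjusted p = 0.00167 over 56438 windows of 5 kb), as it did 36.3% of all windows. Part of the embryonic cover is weak peaks, of −log10 q 2.87, 3.96 and 5.71 at E12.5 and 5.59 in E14.5 replicate 2. With only peaks of −log10 q of at least 10, E14.5 replicate 2 has less cover here than ISC replicate 2. The next window, from 148135001 to 148140000, had 0.178 and 0.209 kb at E12.5, while the other 6 libraries had none. It was called lower at E14.5 (−0.49, adjusted p = 0.00304) and in the adult (−0.25, adjusted p = 0.00390), on cover that is short against the added 500 bp. This window met the filter of a peak in at least 2 libraries through E12.5 alone. It could therefore not come out higher, and its 2 calls are no evidence of a loss. In the merged regions the same end appears as 1 region, from 148134214 to 148135209, with 963 and 996 bp at E12.5. It was lost at E14.5, meaning present in both libraries of one group and in neither of the other, and 18.3% of all merged regions were gained or lost in that comparison (7726 gained and 3622 lost of 62048). With only peaks of −log10 q of at least 10, this region and the E14.5 call were absent.

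Of the 9 windows of 5 kb at Cdx2, 8 had a peak in at least 2 libraries and were tested. The window from 148115001 to 148120000, which holds the strongest summit, was fully covered at 5 kb in all 8 libraries, so its scaled values differ only by the libraries' totals. The windows on either side had 4.30 to 5 kb. From 148105001 to 148110000 the cover was 0.689 and 1.70 kb at E12.5 and 1.62 and 2.30 kb at E14.5. It was 2.19 and 3.82 kb for ISC and 1.56 and 1.51 kb for enterocytes. This window was called higher in the adult (0.55, adjusted p = 0.0414, limma), although the adult and embryonic libraries overlap, and the call ended without scaling. It also ended without any one of E12.5 replicate 1, E14.5 replicate 1, either ISC library or either enterocyte library. In all, limma called 1 window of the 8 higher and 2 lower in the adult, where 27.4% and 36.3% of all windows were called. It called 0 higher and 1 lower at E14.5, where 12.9% and 9.83% were called, and at an unadjusted p under 0.05 there were 0 higher. The lower call at E14.5 and 1 of the 2 in the adult are the window from 148135001, tested through its E12.5 cover alone. From E14.5 to ISC limma called 0 in either direction, with 16.1% of all windows called higher and 18.8% lower, and at an unadjusted p under 0.05 there were 0 higher and 1 lower. From ISC to enterocytes it again called 0 in either direction (13.1% higher and 22.4% lower over all windows), and 4 higher and 0 lower had an unadjusted p under 0.05. These 4 windows run from 148110001 to 148130000 and had 4.35 to 5 kb of cover as deposited in both enterocyte and both ISC libraries. None of them was longer in enterocytes than in ISC by its mean as deposited, so the positive differences come from the scaling.

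Cdx1 differed between groups far more in covered length, a measure that was near its ceiling over much of Cdx2. There, the windows from 148110001 to 148130000 had 4.30 to 5 kb of cover in every library and could hardly rise. As deposited, its window had 2.76 and 4.94 kb of cover in the E12.5 libraries and 18.4 and 15.9 kb at E14.5. It had 22.9 and 28.4 kb in ISC and 8.69 and 8.99 kb in enterocytes. The libraries of each group lie apart from those of every other group, in the order E12.5, enterocytes, E14.5 and ISC, and the span over the 8 libraries is 10.3-fold. Group means were 3.85 ± 1.54 kb at E12.5, 17.1 ± 1.78 kb at E14.5, 25.7 ± 3.85 kb for ISC and 8.84 ± 0.208 kb for enterocytes (SD, n = 2). Scaled for the totals, the order was the same, with 3.92 ± 0.720, 15.1 ± 0.138, 22.1 ± 2.85 and 12.3 ± 0.282 kb. An exact permutation test of 2 against 2 libraries cannot go below p = 0.333, so the tests below rest on limma and its spread over all groups.

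**Figure D3:**
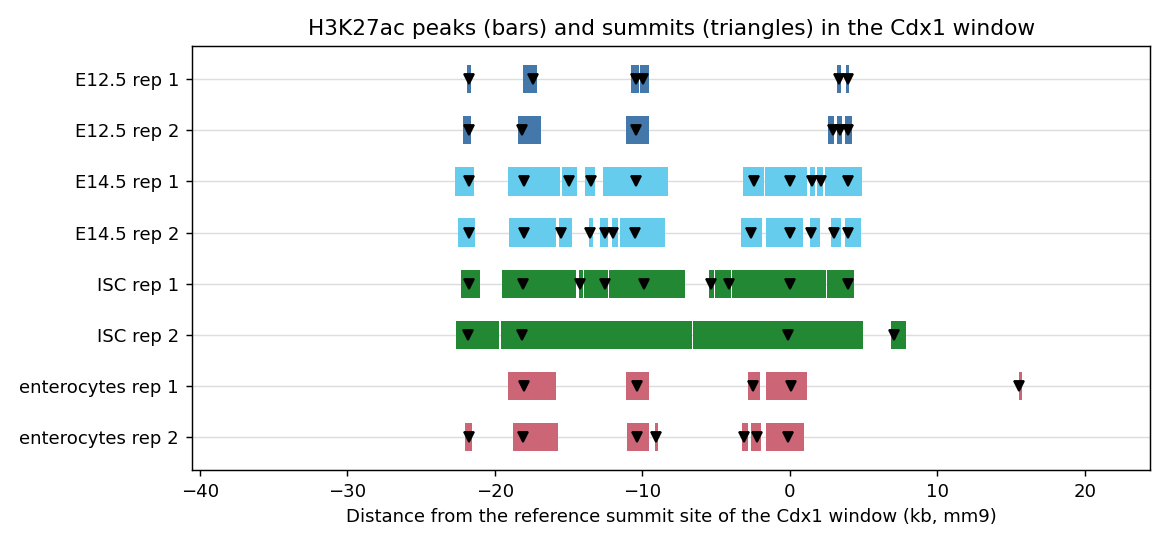
H3K27ac peaks in the Cdx1 window for each of the 8 libraries (rows), with the distance in kb from the median position of the summit at 61195536 on the horizontal axis; bars are called peaks and triangles their summits. The E12.5 libraries have short, scattered peaks, the ISC libraries long blocks, and the enterocyte libraries a few separate peaks that include one at 0 kb.

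From E12.5 to E14.5 the acetylated length of Cdx1 rose in both libraries, by 1.83 on the log2 scale (SE 0.14, adjusted p = 0.000534, limma with Benjamini-Hochberg adjustment). Of all 65 kb tiles, 14.8% were called higher in that comparison, and their median difference was −0.03. With any one library left out the difference was 1.66 to 2.00. In the libraries' own ranking of tiles, 5226 and 3892 of the 16704 tiles had more cover than Cdx1 at E12.5, and 395 and 416 at E14.5. The locus thus stood at the 68.7th and 76.7th percentile at E12.5 and at the 97.6th and 97.5th at E14.5.

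The gain at E14.5 was called in adjoining windows. Of the 13 windows of 5 kb, 7 were tested, and limma called 5 higher and 0 lower, against 12.9% and 9.83% of all windows. The 5 windows called run side by side from 61175001 to 61200000. The largest difference was in the window from 61190001 to 61195000, which had no peak in either E12.5 library and 2.53 and 2.51 kb at E14.5 (log2 difference 2.45, adjusted p = 0.000487). In the window from 61180001 to 61185000 the cover went from 0.244 and 0.533 kb to 3.81 and 2.93 kb (1.96, adjusted p = 0.00120). In the window from 61195001 to 61200000 it went from 0.465 and 1.28 kb to 4.53 and 3.47 kb (1.59, adjusted p = 0.00770). The windows from 61175001 and from 61185001 rose by 0.98 (adjusted p = 0.00387) and 0.71 (adjusted p = 0.00941). Leaving out E14.5 replicate 2 reduced the 5 calls to 3.

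Of the 8 merged regions at Cdx1 in these 4 libraries, 4 were gained at E14.5 and 0 lost, against 18.3% of all merged regions gained or lost. The longest gained region ran from 61193882 to 61196741, with 2860 and 2503 bp in the E14.5 libraries and no peak at E12.5. Another, from 61192223 to 61193765, had 1407 and 1445 bp. The remaining ones, from 61181676 to 61182330 and from 61196944 to 61197793, had 655 and 239 bp and 713 and 620 bp. A count of separate regions depends on how gaps are treated: when peaks within 1 kb were merged, 0 regions were gained. With only peaks of −log10 q of at least 10, 2 were gained. The share of all regions was not computed under either of these alternatives.

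**Figure D4:**
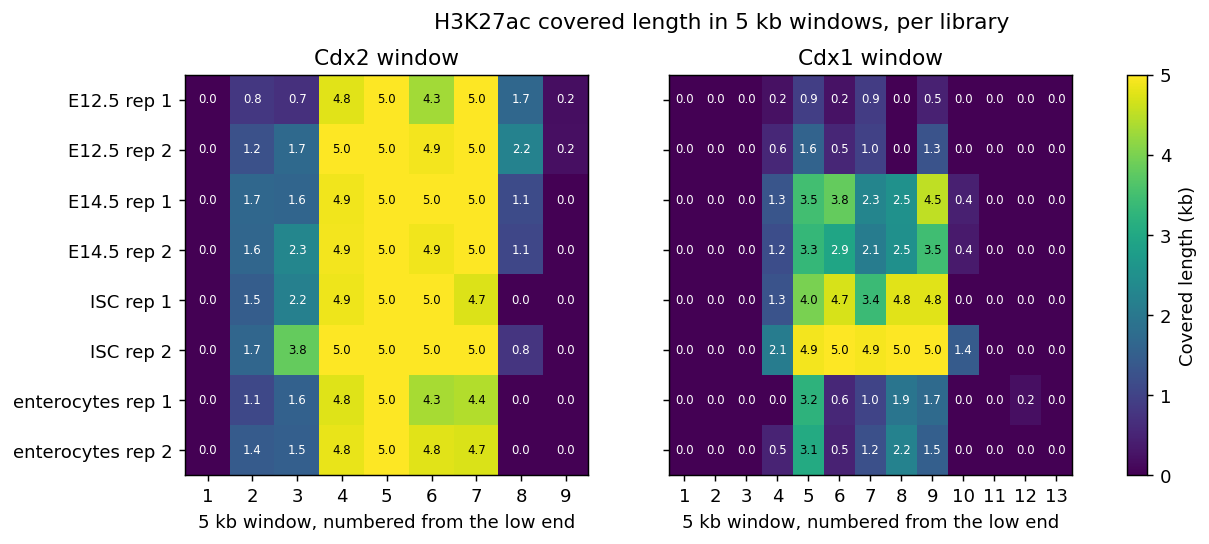
Length covered by H3K27ac peaks, in kb as deposited, in each 5 kb window of the Cdx2 and Cdx1 loci (columns, numbered from the low coordinate) for the 8 libraries (rows); colour and printed value give the same length, and 5 kb is full cover. Cdx2 windows 4 to 7 are near full cover in every library, and Cdx1 windows 5 to 9 fill from E12.5 to ISC and are shorter again in enterocytes.

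In ISC the Cdx1 length was above that of E14.5, by 0.53 (SE 0.14, adjusted p = 0.0250, limma). In that comparison 17.3% of 65 kb tiles were called higher and the median tile differed by −0.08. Both ISC libraries exceed both E14.5 libraries, also after scaling. The call was lost without scaling (0.56, adjusted p = 0.177), with only the 2 groups compared (adjusted p = 0.0537), and without E14.5 replicate 1, E14.5 replicate 2 or ISC replicate 1 (adjusted p = 0.114, 0.121 and 0.124). Cdx1 stood at the 99.3rd and 99.1st percentile of tiles in ISC, with 115 and 147 tiles above it. Of the 7 windows of 5 kb, 2 were called higher and 0 lower, against 16.1% and 18.8% of all windows, and the count of higher windows was 1 without E14.5 replicate 1 and 1 without E14.5 replicate 2. The window from 61185001 to 61190000 went from 2.27 and 2.11 kb to 3.42 and 4.93 kb (0.73, adjusted p = 0.00555). The window from 61190001 to 61195000 went from 2.53 and 2.51 kb to 4.78 and 5 kb (0.79, adjusted p = 0.0154). In ISC replicate 2, which had the most cover of all libraries, 3 of the windows were full. No merged region was gained or lost, where 23.1% of all regions were. Wide peaks of ISC replicate 2 joined most sites, leaving 4 regions, so this count could not show a change at single sites. The longest single peak was 6.35 and 13.0 kb in ISC against 4.39 and 3.21 kb at E14.5.

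In enterocytes Cdx1 kept less cover than in ISC, and what it kept was in few places. The scaled length fell by 0.82 on the log2 scale (difference −0.82, SE 0.14, adjusted p = 0.00461, limma). Over all 65 kb tiles 27.1% were called lower, with a median of −0.02. Without scaling the median tile itself differed by −0.50, and Cdx1 differed by −1.48. Leaving out any one library gave −0.95 to −0.69 with the call kept, and only peaks of −log10 q of at least 10 gave −0.85 with an adjusted p of 0.0541. Cdx1 stood at the 92.7th and 93.5th percentile of tiles in enterocytes, with 1218 and 1084 tiles above it.

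The scaled differences between enterocytes and ISC varied along the locus, but windows were not tested against each other. Of the 7 windows, limma called 3 lower and 0 higher, against 22.4% and 13.1% of all windows. Without scaling 5 were called lower, as were 16338 of the 56438 windows over the genome. The window from 61180001 to 61185000 went from 4.69 and 5 kb in ISC to 0.562 and 0.474 kb (−1.94, adjusted p = 0.000716), against 0.244 and 0.533 kb at E12.5. The window from 61185001 to 61190000 went from 3.42 and 4.93 kb to 1.02 and 1.23 kb (−0.97, adjusted p = 0.00187). The window from 61170001 to 61175000 went from 1.289 and 2.097 kb to 0 and 0.490 kb (−1.32, adjusted p = 0.04995, just under the threshold). By contrast the window from 61175001 to 61180000 had 4.00 and 4.91 kb in ISC and 3.22 and 3.05 kb in enterocytes, and its scaled difference of 0.17 was not called (adjusted p = 0.407). The windows from 61190001 and from 61195001 were shorter as deposited, with 1.94 and 2.22 kb and with 1.74 and 1.52 kb in enterocytes. Their scaled differences of −0.48 and −0.78 were not called (adjusted p = 0.0779 and 0.0621). No merged region was gained or lost by the rule of all against none, where 23.9% of all regions were. Here too, wide peaks of ISC replicate 2 joined most sites, so this rule could not show a change at single sites. When a region had to be covered over at least 50% to count, 2 were lost. The share of all regions lost under that rule was not computed.

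Over all 8 libraries, the adult and embryonic covers of Cdx1 overlap. The adult mean was 17.2 ± 9.96 kb and the embryonic mean 10.5 ± 7.79 kb (SD, n = 4), which differ by 6.76 kb (two-sided exact permutation p = 0.343, smallest possible 0.0286). The limma contrast of the group means, whose error is the spread between replicates, gave 1.03 (SE 0.098, adjusted p = 0.000203), and 25.8% of 65 kb tiles were called higher, with a median of −0.27. With 2 group means in place of 4, so that the spread between the groups within adult and embryo counts as error, the adjusted p was 0.153. In 5 kb windows 5 of 7 were called higher in the adult and 0 lower, against 27.4% and 36.3% of all windows. The count was 3 without E12.5 replicate 1, either E14.5 library or either enterocyte library. The largest of these differences was in the window from 61190001 to 61195000 (1.77, adjusted p = 0.000106, limma), which had no cover in the E12.5 libraries and 2.53 and 2.51 kb in those of E14.5. The adult values were 4.78 and 5 kb for ISC and 1.94 and 2.22 kb for enterocytes. The E14.5 values lie above both enterocyte values, so adult and embryo overlap in this window too. No merged region of either locus was gained or lost between embryo and adult, where 7.02% of all regions were. There were only 4 regions at Cdx2 and 5 at Cdx1, so this 0 is no result about the loci. The main Cdx1 regions have the edges of single wide peaks of ISC replicate 2. Any short E12.5 peak inside them counts as presence, so the count cannot show a change at single sites.

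Merged over the 8 libraries, the Cdx1 peaks formed 5 regions, of which 3 were found in at least 2 libraries. The one from 61175947 to 61188915 was covered over 2.07 and 3.09 kb at E12.5 and 9.57 and 8.37 kb at E14.5. In the adult it had 12.1 and 13.0 kb for ISC, where replicate 2 covered it as a single peak, and 4.81 and 4.76 kb for enterocytes. The one from 61188991 to 61200478 had 0.465 and 1.28 kb at E12.5 and 7.50 and 6.33 kb at E14.5. It had 9.55 and 11.5 kb for ISC and 3.67 and 3.74 kb for enterocytes. Both regions show the order of groups of the whole locus, which adds little, as together they hold most of its cover in every library. The edges of both are those of single peaks of ISC replicate 2. The third, from 61172840 to 61175852, was present in every library but enterocyte replicate 1. The remaining 2 regions were in 1 library each, with 0.967 kb in ISC replicate 2 and 0.213 kb in enterocyte replicate 1.

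Within Cdx1, summits recurred at the same few positions in different libraries, and sites differed in which groups had called peaks over them. The sites were formed after the data were seen, by linking summits within 500 bp, and cover was read in the 501 bp around each site's median. Around 61177472, summits of 7 libraries lay within 133 bp, and all 8 libraries had cover there, E12.5 included. Around 61185146, 7 libraries had a summit and all 8 had cover. Around 61173788, the summits of 7 libraries lay within 84 bp, and enterocyte replicate 1 had none.

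Cover at other sites differed between the groups. Around 61195536, the 6 libraries of E14.5, ISC and enterocytes had summits within 201 bp and full cover of 501 bp, and both E12.5 libraries had 0 bp. Around 61193050 the same 6 libraries had cover and E12.5 had none. Around 61199478 the pattern was a different one: E12.5 had 210 and 457 bp, E14.5 501 and 448 bp, ISC 501 bp in both libraries, and enterocytes 0 bp in both. The summit at 61195536 is thus found in every group but E12.5, whereas the cover around 61199478 is present from E12.5 to ISC and absent from enterocytes. Further sites had cover in both E14.5 and both ISC libraries and none in E12.5 or enterocytes. They lie around 61180061, 61180567, 61182042, 61183044, 61197002 and 61197646. The E14.5 summits at these sites belong to weak peaks, of −log10 q 2.94 to 7.81. Around 61190224 and 61191395 only the ISC libraries had cover. With 2 libraries a group these are descriptions of the lists and were not tested. Absence of cover here means only that no peak was called. Cover was not scaled, and the enterocyte libraries had the least total cover, 38.8 Mb each.

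The strongest Cdx1 peak was also at different sites. In both E12.5 libraries its summit lay near 61185146, at 61185104 and 61185125. In E14.5 replicate 1, both ISC and both enterocyte libraries it lay near 61195536, and in E14.5 replicate 2 at 61177499. By −log10 q, this peak ranked 18677 and 14398 in the E12.5 lists, 6075 and 5140 at E14.5, 39 and 47 in ISC and 822 and 637 in enterocytes. Within its own list it therefore stood at the 59.99th and 72.6th percentile of peaks at E12.5, the 88.3rd and 89.5th at E14.5, the 99.9th in both ISC lists, and the 97.7th and 98.2nd in enterocytes.

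Set beside each other in the same library, Cdx1 had less cover than Cdx2 in 7 of the 8 libraries and more in ISC replicate 2. The covered length of Cdx1 was 12.3 and 19.5% of that of Cdx2 at E12.5, 75.6 and 64.0% at E14.5, 98.6 and 108% in ISC, and 41.0 and 40.3% in enterocytes. The windows differ in width, and the part of a library's total covered length in this ratio was not tested. The 4 groups do not overlap in it. In both ISC lists the strongest Cdx1 peak ranked above the strongest Cdx2 peak, at 39 against 61 and at 47 against 1528, and in the other 6 lists Cdx2 ranked above Cdx1. The difference between the loci in how they varied over the groups was not tested.

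Tiles elsewhere with the most similar course over the 8 libraries were found by Pearson r of log2(scaled covered bp + 500), among tiles of like mean cover. For Cdx1 these were, of 2373 tiles, chromosome 7 from 114780001 to 114845000 (r = 0.993), chromosome 1 from 132720001 to 132785000 (r = 0.989) and chromosome 5 from 30475001 to 30540000 (r = 0.989). The tile on chromosome 1 had scaled means of 4.81 kb at E12.5, 11.8 kb at E14.5, 18.2 kb for ISC and 10.8 kb for enterocytes, the same order of groups as Cdx1. For Cdx2 they were, of 441 tiles, chromosome 5 from 123570001 to 123615000 (r = 0.971) and from 143550001 to 143595000 (r = 0.966), and chromosome 14 from 63855001 to 63900000 (r = 0.962). The tile on chromosome 14 had 37.8, 31.9, 29.9 and 41.0 kb in the same order of groups. Scaled values of Cdx2 and of these tiles share the libraries' totals, so a like course among widely covered tiles carries those totals too. These r values describe tiles picked as the highest of many and carry no test.

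In RefSeq's order of genes on GRCm38.p6, Cdx2 lies between Pdx1, a homeobox gene of pancreas and duodenum, and Urad, and Cdx1 between Slc6a7, a neuronal transporter gene, and Gm52351, beyond which lies Pdgfrb, a receptor gene of mesenchymal cells. The windows may hold elements of these neighbours, and cover was not assigned to any gene's start.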

How the data were processed

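H3K27ac ChIP-seq of 8 libraries (4 groups of 2) was analysed from the deposited peak lists, and the 8 inputs enter by way of peak calling alone. The build was mm9 and the tools were MACS2, SAMtools 1.2, Bowtie 1.1.2 and bcl2fastq 1.8.4, per the submitters' processing notes. Per the file headers, MACS 2.1.0.20140616 called narrow peaks for each library against its input at a q-value threshold of 0.05. The deposited columns give the pileup signal at the summit, the fold enrichment ratio over local background, and −log10 p and −log10 q. These are the authors' values and were used for ranking and filtering inside one list. No counts per region were used, so counting error is not given and precision rests on 2 libraries per group.

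Peak positions were merged into covered length per window, per genome-wide tile of 45, 65 or 5 kb laid so that the windows are whole tiles, and per region merged over libraries. Tiles where 2 or more libraries had a peak were fitted with limma 3.58.1 (lmFit, eBayes with trend and robust, R 4.3.3) as described beside the results. A merged region was gained or lost when every library of one group and none of the other had it. Scripts ran in Python 3.11.15 and were tested on simulated data. The p-values reflect the spread among these libraries, which may be technical. The labels do not say which animals they came from.

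The rule for what is named was: each locus, each merged region found in 2 or more libraries, each 5 kb window called in at least 1 comparison, and the 3 most similar tiles. Summit sites were added after seeing the data. The loci, lists and rules were chosen with earlier results of these data known. Lists of CDX partners, CDX targets and cell type markers had been set, but the gene table is on GRCm38.p6 and coordinates were not converted, so they were not applied. Both members matched the gene table by symbol, and 1 of the 2 has a promoter sequence used here. Alternatives were no scaling, other added lengths (100 and 2000 bp), a peak in at least 4 libraries, −log10 q of at least 10, merging within 1 kb, a 50% cover rule, equal numbers of peaks, other fits, a replicate block and each library left out.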

Additional observations from a re-analysis of the deposited data

How the results depend on the processing

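For locus length under limma, 69 of 80 values from alternatives that keep every library had the same direction and call, and 58 of 64 with a library left out. Without scaling, Cdx2 turned direction in all 4 comparisons, to 0.044 (E14.5 against E12.5), 0.0080 (ISC against E14.5), −0.18 (enterocytes against ISC) and −0.061 (adult against embryo), none of them called. Enterocytes against ISC became a call at Cdx2 (0.49, adjusted p = 0.0434) with a peak in at least 4 libraries, and without ISC replicate 1 (0.68, adjusted p = 0.0358). ISC against E14.5 at Cdx2 turned to 0.08 without E14.5 replicate 2 and to 0.17 without ISC replicate 2. For Cdx1, ISC against E14.5 lost its call at 0.56 without scaling, 0.68 with −log10 q of at least 10 (adjusted p = 0.114), 0.37 with peaks within 1 kb merged (adjusted p = 0.0821) and 0.53 with only the groups compared. Enterocytes against ISC lost it at −0.85 with −log10 q of at least 10, and adult against embryo at 1.03 with 2 group means. The cause was not tested.

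With a library left out, limma's differences ranged as follows for E14.5 against E12.5, ISC against E14.5, enterocytes against ISC and adult against embryo: Cdx2 −0.34 to −0.06, −0.22 to 0.17, 0.30 to 0.68 and 0.02 to 0.21, and Cdx1 1.66 to 2.00, 0.40 to 0.66, −0.95 to −0.69 and 0.95 to 1.12. A group left with 1 library was assumed to vary like the others. Called 5 kb windows in the same order ranged at Cdx2 from 1 to 2, 0 to 1, 0 to 1 and 2 to 2 lower, and 0 to 0, 0 to 0, 0 to 2 and 0 to 1 higher. At Cdx1 they ranged from 3 to 6, 1 to 3, 0 to 0 and 3 to 5 higher, and 0 to 0, 0 to 1, 2 to 3 and 0 to 1 lower. Without ISC replicate 1 or 2 the Cdx2 counts were 2 lower at E14.5 and 1 lower in ISC, and without ISC replicate 1 they were 2 higher and 1 lower in enterocytes. Without ISC replicate 2, Cdx1 had 1 window lower in ISC and 1 lower in the adult. The adult minus embryonic cover ranged from −1970 to −282 bp at Cdx2 and from 3047 to 9607 bp at Cdx1.

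Window counts also moved at Cdx2 to 0 lower at E14.5 and 1 lower in the adult, each with a peak in at least 4 libraries and with −log10 q of at least 10. They moved to 1 lower in ISC with a peak in at least 4 libraries, and to 0 higher in the adult without scaling and with 100 bp added. At Cdx1 they moved to 1 higher in ISC with −log10 q of at least 10, and without scaling to 5 lower in enterocytes and 3 higher in the adult. Regions moved to 0 lost at E14.5 for Cdx2 with −log10 q of at least 10. For Cdx1 they moved to 2 gained (−log10 q of at least 10) and 0 gained (1 kb merging) at E14.5, and to 2 lost (50% cover) and 1 lost (−log10 q of at least 10) in enterocytes. Shares of all regions under these rules were not computed. The adult minus embryonic cover of Cdx2 turned to 2324 bp with scaling, 662 bp with −log10 q of at least 10 and 73.5 bp with equal numbers of peaks (exact permutation p = 0.457, 0.771 and 0.971).

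Without scaling, enterocyte calls over all 65 kb tiles went from 35.1 to 9.78% higher, over 45 kb tiles from 34.7 to 10.9%, and over 5 kb windows from 36.9 to 16.4%. The median 45 kb tile went from −0.03 to −0.47 there, and from −0.02 to 0.08 for E14.5 against E12.5. Replicate numbers of different groups did not deviate together (r −0.177 to 0.203 over the 65 kb tiles, 1 of 6 pairs of groups above 0.1). A replicate block changed no call: its adjusted p-values from limma in the order above were 0.00238, 0.0438, 0.0106 and 0.000724 for Cdx1 and 0.469, 0.967, 0.0780 and 0.422 for Cdx2, at the same differences (1.83, 0.53, −0.82, 1.03 and −0.20, −0.03, 0.49, 0.12). The limits are 2 libraries a group and lengths of called peaks, which have a ceiling at full cover and do not measure peak height.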
